A study of Bos taurus with 15 samples.

Results

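Interferon-stimulated genes were studied in the subcutaneous adipose tissue of the dewlap of dairy cows through the period around calving. A list of 41 gene symbols was compared with the gene names of the series, and 31 of them were found in all 6 tables among 13896 genes. The symbols IFIH1, DDX58, ZBP1, ISG20, IFIT1, IFIT2, BST2, CMPK2, IFI44 and IFI44L did not match a name and were not analysed here. All 31 members had a mean of at least 10 normalised exonic reads in every comparison and passed the filter on low values.

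The animals were primiparous Prim Holstein cows, and fat was taken by biopsy from 3 cows per group. Fat at -4 weeks peripartum (wkpp) was taken before the experimental diets began, and the cows at 1 and 16 wkpp had been fed a low energy diet (LE) or a high energy diet (HE) from the last month of gestation on. Biopsies were repeated on the same animals in the study, so that groups may share cows, but which libraries come from the same cow is not known here. Sample titles carry an unexplained code, m1 or m2, that is the same within each group. It is m1 at -4 wkpp, in MNEB at 1 wkpp and in SNEB at 16 wkpp. It is m2 in SNEB at 1 wkpp and in MNEB at 16 wkpp. The code thus differs between the groups in every comparison except -4 wkpp against MNEB, and it swaps between SNEB and MNEB from 1 to 16 wkpp. In the comparisons where it differs, whatever it marks cannot be told apart from the groups. The cows on the low energy diet had severe negative energy balance (SNEB) and those on the high energy diet moderate negative energy balance (MNEB), and the cows whose RNA was sequenced were those with the most extreme energy balance at 1 wkpp in each group. All cows were therefore selected animals, and those sampled after calving were in lactation. Directional libraries were made from rRNA-depleted total RNA, so that unspliced transcripts were read along with spliced ones. The libraries of a group were numbered 1 to 3 from the most to the fewest exonic reads (on the entire gene, library 2 of SNEB at 1 wkpp had fewer reads than library 3), a number that carries no link to a cow or to the same number in another group.

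Type I interferons bind the receptor IFNAR1/IFNAR2, on which the kinases JAK1 and TYK2 phosphorylate STAT proteins. The factor ISGF3, to which STAT2 and IRF9 belong, binds interferon-stimulated response elements and turns on genes that sense foreign RNA, degrade it, block its translation or mark proteins with the ubiquitin-like protein ISG15. IRF7 is both a product of this response and a driver of further interferon synthesis, and USP18 limits the response at the receptor. In adipose tissue, adipocytes, endothelial cells, fibroblasts and macrophages all carry the receptor.

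Between 7928661 and 14609328 exonic reads lay on genes in the libraries at -4 wkpp and of SNEB, and 1986255 to 7428893 in those of MNEB, so that low members are known less precisely in MNEB. The 8 adipocyte markers with values (of 10), LPL, FABP4 and PLIN1 among them, were read in every library. Their summed normalised exonic reads were 69605 to 72022 at -4 wkpp, 74822 to 90427 and 45187 to 52423 in SNEB at 1 and 16 wkpp, and 21739 to 59727 and 12073 to 44801 in MNEB at 1 and 16 wkpp. The single markers were divided. Of the 8, 5 were higher in every SNEB than in every MNEB library at 1 wkpp (all genes 19.1%). PNPLA2 was lower in every SNEB library (all genes 20.6%), and LIPE and CIDEA overlapped. At 16 wkpp, 2 were higher in every SNEB library (all genes 22.1%) and 6 overlapped. Markers of fibroblasts (3 of 6 listed had values) summed to 59600 to 70679 at -4 wkpp, 33890 to 52268 and 67672 to 76086 in SNEB at 1 and 16 wkpp, and 6475 to 11884 and 9006 to 22021 in MNEB at 1 and 16 wkpp. The skeletal muscle markers (8 of 9) summed to 97 to 363 at -4 wkpp, 112 to 320 and 241 to 345 in SNEB at 1 and 16 wkpp, and 1182 to 4099 and 1704 to 3805 in MNEB at 1 and 16 wkpp. TNNT3 made up most of the MNEB sums. It had 1170, 1500 and 3941 in libraries 1, 2 and 3 at 1 wkpp, and 1645, 3043 and 3783 at 16 wkpp. Between SNEB and MNEB, 6 of the 8 markers overlapped at 1 wkpp and 7 at 16 wkpp (of all genes, 39.7% and 44.1% did not overlap). No marker with values was at 0 in all libraries. Fewer cells of a type and less RNA per cell cannot be told apart in these tissue samples, and the part of cell composition in the results below was not tested.

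Within each group, the typical interferon-stimulated gene differed more between libraries than the typical gene did. In each group, 1 library was the highest for more members than the others were. At -4 wkpp, library 2 was the highest of the 3 for 28 of 31 members, against 42.9% of 10454 genes with at least 10 normalised reads on average. In SNEB at 1 wkpp, library 2 was the highest for 24 of 31 members, against 37.5% of genes. In MNEB, library 1 was the highest for 29 of 31 members at 1 wkpp (34.8% of genes) and for 26 of 31 at 16 wkpp (31.1% of genes). In SNEB at 16 wkpp the members were more evenly divided, with library 2 the highest for 16 (33% of genes) and library 3 for 13 (37.1%). These counts describe the libraries, and members are not replicates of a condition.

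The ratio of the highest to the lowest of the 3 libraries had a median over the members of 1.89 at -4 wkpp, 1.83 in SNEB at 1 wkpp, 1.45 in SNEB at 16 wkpp, 2.96 in MNEB at 1 wkpp and 1.75 in MNEB at 16 wkpp. The median over all 10454 genes was 1.39, 1.43, 1.34, 1.66 and 1.49 in the same order. The widest spread within a group was that of ISG15 in MNEB at 1 wkpp, at 23.4-fold, and OAS2 reached 8.64-fold in SNEB at 1 wkpp. Each member was set against its own mean over the 15 libraries on the scale log2(normalised exonic reads + 1). On that scale, the median over members was 1.23 in library 1 of MNEB at 1 wkpp, where 31 of 31 members were above their mean, and -0.71 in library 1 of SNEB at 1 wkpp, where 1 of 31 was. The same median over all genes stayed between -0.003 and 0.012 in the 15 libraries.

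**Figure D1:**
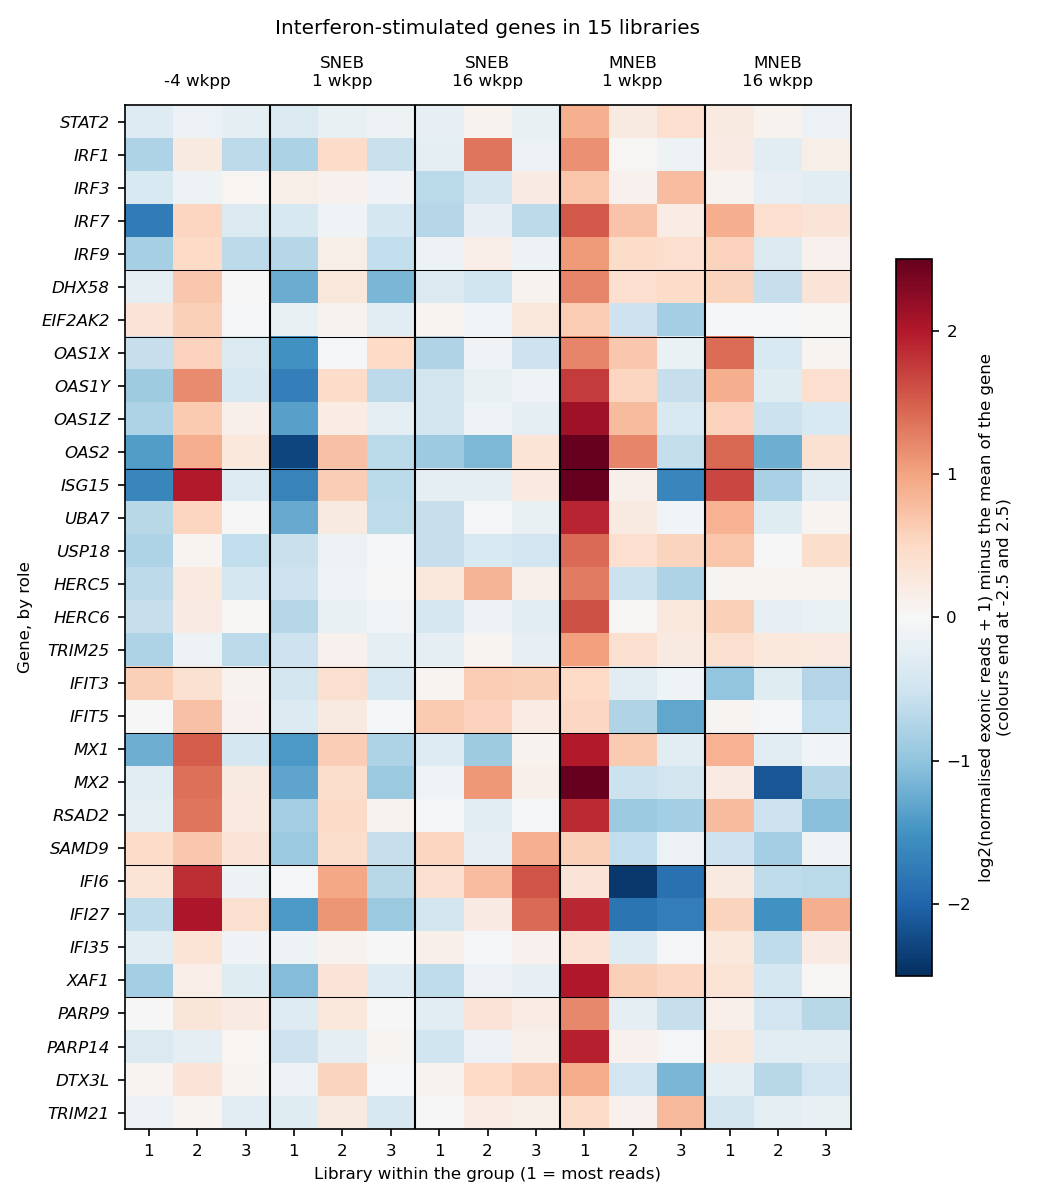
Rows are the 31 interferon-stimulated genes grouped by role (horizontal lines) and columns the 15 libraries grouped by condition; colour is log2(normalised exonic reads + 1) minus the mean of the gene over the 15 libraries. Library 1 of MNEB at 1 wkpp is above the mean for 31 of 31 members, and library 2 at -4 wkpp is the highest of its group for 28.

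Other measures of the same libraries are given beside this pattern. Library 1 was also the deepest of both MNEB groups, with 6935183 exonic reads at 1 wkpp and 7428893 at 16 wkpp against 1986255 to 2855701 in the other 4 MNEB libraries, whereas library 2 at -4 wkpp and in SNEB at 1 wkpp was the second of its group in exonic reads. The 12 leukocyte and macrophage markers with values (of 13 listed) summed to 11216, 18077 and 10506 normalised exonic reads in libraries 1, 2 and 3 at -4 wkpp. They summed to 17302, 28734 and 12918 in SNEB at 1 wkpp and to 28065, 23455 and 30543 in SNEB at 16 wkpp. In MNEB they summed to 12084, 3105 and 6407 at 1 wkpp and 3285, 4321 and 3826 at 16 wkpp. The leukocyte sum was therefore highest in the library highest for the members in 3 groups, and lowest in that library in SNEB and MNEB at 16 wkpp. The 14 T, B and NK cell markers with values (of 15) summed to 350 to 410 at -4 wkpp, 213 to 607 and 304 to 752 in SNEB at 1 and 16 wkpp, and 151 to 349 and 113 to 234 in MNEB at 1 and 16 wkpp. They were highest in the library highest for the members in SNEB at 1 wkpp (library 2), and in another library in the other 4 groups (library 1 at -4 wkpp, 3 in SNEB at 16 wkpp, 3 and 2 in MNEB at 1 and 16 wkpp). The adipocyte sums were 59727, 28676 and 21739 in libraries 1, 2 and 3 of MNEB at 1 wkpp and 44801, 35156 and 12073 at 16 wkpp, highest in library 1 both times, whereas library 2 had the lowest adipocyte sum at -4 wkpp and in SNEB at 16 wkpp and the middle one in SNEB at 1 wkpp. The 7 endothelial markers summed to 20571 to 25200 at -4 wkpp, 31118 to 38495 and 23877 to 26781 in SNEB at 1 and 16 wkpp, and 31505 to 65239 and 25626 to 36223 in MNEB at 1 and 16 wkpp, with library 1 the highest in both MNEB groups and library 2 the highest at -4 wkpp, the lowest in SNEB at 1 wkpp and the middle one in SNEB at 16 wkpp. Fibroblast and skeletal muscle sums were lowest in library 1 in both MNEB groups. The part of depth and of these cells in the pattern was not tested.

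MX1, a GTPase that traps incoming viral nucleocapsids, showed the pattern at high counts. In libraries 1, 2 and 3 it had normalised exonic reads of 344, 2309 and 596 at -4 wkpp, 298, 1229 and 469.5 in SNEB at 1 wkpp, 643, 436 and 858 in SNEB at 16 wkpp, 3167, 1265 and 662 in MNEB at 1 wkpp and 1473, 666 and 769 in MNEB at 16 wkpp. The highest library at -4 wkpp lay above all libraries but 1, and the 5 groups overlapped. MX1 reads outside exons (reads on the entire gene minus exonic reads, called intronic here) were 284, 2389 and 460.1 at -4 wkpp and 153, 1089 and 335 in SNEB at 1 wkpp. In MNEB they were 2744, 827 and 413 at 1 wkpp and 1102, 606 and 523 at 16 wkpp, so the library that was highest in exonic reads was also highest in intronic reads in these 4 groups. Of 27 members with at least 200 intronic reads and in no library more exonic than entire-gene reads, the intronic reads were highest in the library highest for most members in exonic reads for 21 at -4 wkpp, 21 in SNEB at 1 wkpp, 11 in SNEB at 16 wkpp, 26 in MNEB at 1 wkpp and 22 in MNEB at 16 wkpp. A share over all genes is not given for intronic reads. They come from the same libraries as the exonic reads and are no independent measure.

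ISG15, the ubiquitin-like protein that is conjugated to new proteins, was the gene most like MX1 of 10453. After the group means were removed from log2(normalised exonic reads + 1), its Pearson correlation with MX1 was 0.95 over the 15 libraries, which share their depth and normalisation. Its normalised exonic reads were 18.4, 237 and 46.7 at -4 wkpp, 17.8, 91.2 and 36.6 in SNEB at 1 wkpp, 49.4, 49.6 and 70.3 in SNEB at 16 wkpp, 431, 64.8 and 18.4 in MNEB at 1 wkpp and 191, 33.4 and 48.8 in MNEB at 16 wkpp. Library 2 at -4 wkpp and library 1 of both MNEB groups were far above the rest, and the groups overlapped. OAS1Y (0.95) and OAS2 (0.90) came next, both synthetases of the 2'-5' oligoadenylates that activate an antiviral RNase, followed within the first 10 genes by IRF9 (0.87), OAS1Z (0.87) and UBA7 (0.87), the enzyme that activates ISG15 for conjugation. MIR22 (0.89) and TMED9 (0.88), which are not members, ranked between OAS2 and IRF9. The remaining places among the first 10 were also held by genes that are not members. The median correlation of the other 30 members with MX1 was 0.75, and that of all genes was 0.01. Of the members, 12 exceeded 0.8, as did 48 genes in all, and 15 members were among the 100 genes most like MX1. At the other end stood TRIM21 (0.21), an antibody receptor with ubiquitin ligase activity, IRF3 (0.26), which is activated by phosphorylation, and IFIT3 (0.31).

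Each comparison was tested with limma voom on its 6 libraries, once on exonic reads and once on the entire gene, and a gene was called when its Benjamini-Hochberg adjusted p was below 0.01 in both with the same sign. OAS1Z could not be tested on the entire gene, where it had 98 reads in all 15 libraries against 2424 exonic reads. It is a close neighbour of the other OAS1 genes in the RefSeq order, and whether their coordinates overlap was not examined. Its values, like the split of reads among OAS1X, OAS1Y and OAS1Z and between MX1 and MX2, are uncertain. None of the 30 members tested in both was called in any of the 6 comparisons. Over all genes, the share called was 1.83% for -4 wkpp against MNEB at 1 wkpp, 0.0378% for -4 wkpp against SNEB at 1 wkpp, 0% for MNEB and 0% for SNEB at 1 against 16 wkpp, 0% for SNEB against MNEB at 1 wkpp and 3.66% at 16 wkpp. Outside the comparisons of 1 with 16 wkpp, where no gene was called with any library left out either, these shares moved with single libraries. For -4 wkpp against MNEB the 190 genes called became 2, 1 and 1 without libraries 1, 2 and 3 at -4 wkpp and 227, 4 and 19 without those of MNEB, and for SNEB against MNEB at 1 wkpp the 0 genes became 449 without library 1 of MNEB. The 4 genes of -4 wkpp against SNEB became 84 without library 2 of SNEB and 0 without any other library, and the 372 of SNEB against MNEB at 16 wkpp became 34 to 111. With any single library left out, no member was called. At an unadjusted p below 0.05 in exonic reads, limma gave 7, 1, 4, 2, 11 and 10 of 31 members in the same order. The corresponding shares of all genes were 42.2%, 14.5%, 13.5%, 7.2%, 32.3% and 38.4%. With all libraries in, the share of members was above that of all genes in SNEB against MNEB at 1 wkpp alone (35.5%). The counts of members turned on single libraries as well. For SNEB against MNEB at 1 wkpp the count was 6 without library 1 of MNEB (34.7% of all genes), 17 without library 3 of MNEB (24.8%) and 5 without library 1 of SNEB (24.9%). For SNEB at 1 against 16 wkpp it was 16 without library 2 at 1 wkpp (16.6% of all genes) and 0 without library 1 at 1 wkpp (3.02%). For -4 wkpp against MNEB it ranged from 4 without library 1 at -4 wkpp (33.9%) to 14 without library 2 at -4 wkpp (42.1%), with 11 and 12 without libraries 2 and 3 of MNEB (38.8% and 36.9%). For -4 wkpp against SNEB it reached 7 without library 2 of SNEB (22.4%), and was 2 without library 3 at -4 wkpp (10.9%) and 0 without library 2 at -4 wkpp or library 1 or 3 of SNEB (16%, 9.21% and 10.6%). For MNEB at 1 against 16 wkpp it was 2, 2 and 1 without libraries 1, 2 and 3 at 16 wkpp (10.1%, 9.84% and 9.88%) and 5, 5 and 6 without libraries 1, 2 and 3 at 1 wkpp (18.4%, 12.4% and 10.5%), and for SNEB against MNEB at 16 wkpp 6 without library 1 of SNEB (33%). The standard errors of the members had a median of 0.26 to 0.46 on the log2 scale over the 6 comparisons, against 0.22 to 0.30 for all genes. The labels name no cow, so p-values measure the spread between these libraries. The other settings tried called 0 to 2 members in a comparison.

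**Figure D2:**
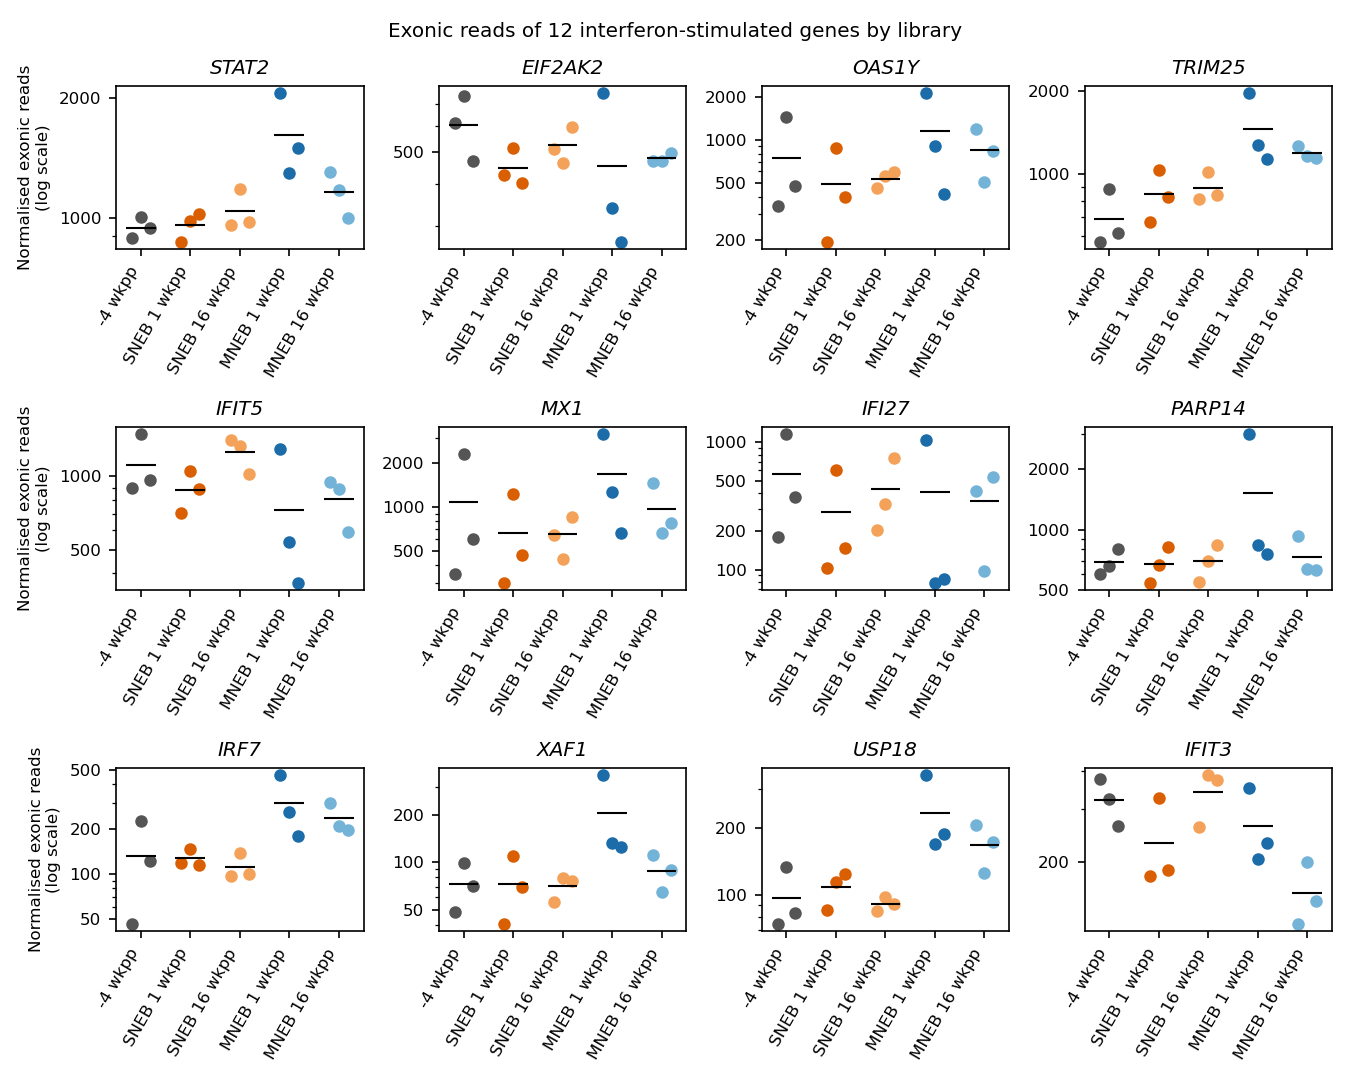
Normalised exonic reads (log axis) of 12 members in each library; points are libraries, horizontal lines the means of the 3 libraries of a group. The first 8 panels show the member with the highest mean of each role, the last 4 members chosen after their values were seen; the high single points at -4 wkpp and in MNEB at 1 wkpp (2309 and 3167 for MX1) widen the groups.

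The comparison of SNEB with MNEB at 1 wkpp set severe against moderate energy deficit just after calving. The diet and the code of the sample titles differed between these groups as well, and cannot be told apart from the deficit. Here 28 of 31 members had a negative log2 fold change, SNEB minus MNEB, against 46.4% of all genes, and their median was -0.75, against 0.07 for all genes. Without library 1 of MNEB the count was 19 of 31 and the median -0.32. There were 8 members without overlap between groups, all with higher values in MNEB (25.8% of members, against 20.6% of all genes in that direction, 19.1% in the other and 39.7% in both).

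Members that drive transcription were all lower in the mean of SNEB than of MNEB at 1 wkpp. STAT2, the signal transducer of ISGF3 and the one with the highest mean count (counts are not scaled by gene length), had normalised exonic reads of 891, 1003 and 941 at -4 wkpp, 869.7, 980.4 and 1025 in SNEB at 1 wkpp, 961, 1183 and 974 in SNEB at 16 wkpp, 2050, 1297 and 1496 in MNEB at 1 wkpp and 1305, 1175 and 999 in MNEB at 16 wkpp. The 3 MNEB libraries at 1 wkpp were above all 3 of SNEB and of -4 wkpp, and the log2 fold change, SNEB minus MNEB, was -0.71 ± 0.23 (SE; adjusted p = 0.063), which did not pass. IRF9, its DNA-binding partner, had a log2 fold change of -1.04 ± 0.30 (SE; adjusted p = 0.045), again without overlap. IRF7 had normalised exonic reads of 46.0, 228 and 122 at -4 wkpp, 119, 147 and 116 in SNEB at 1 wkpp, 96.1, 137 and 99.4 in SNEB at 16 wkpp, 459, 259.4 and 180.1 in MNEB at 1 wkpp and 298, 211 and 198 in MNEB at 16 wkpp, with all MNEB libraries above all SNEB libraries at both times. Its log2 fold change at 1 wkpp was -1.28 ± 0.34 (SE; adjusted p = 0.035) in exonic reads and -1.45 ± 0.37 (SE; adjusted p = 0.11) for the entire gene, and without library 1 of MNEB it was -0.76 in exonic reads (adjusted p = 0.12 in limma). IRF1, an inducible activator that responds to interferon gamma as well, and IRF3 had log2 fold changes of -0.68 ± 0.42 (SE; adjusted p = 0.29) and -0.45 ± 0.23 (SE; adjusted p = 0.2). IRF1 had -0.21 without library 1 of MNEB and -0.41 without library 1 of SNEB, and all 5 factors were negative with any single library left out.

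The groups of ISG15 conjugation and of oligoadenylate synthetases went the same way at 1 wkpp, with 6 of 6 and 4 of 4 members negative and medians of -1.08 and -1.45 when all libraries were in. Without library 1 of MNEB the counts were 4 of 6 and 4 of 4 and the medians -0.46 and -0.68, and without library 1 of SNEB the median of the oligoadenylate synthetases was -0.92. TRIM25, a ligase for ISG15 and for the sensor RIG-I, had normalised exonic reads of 569.7, 889 and 613 at -4 wkpp, 676, 1036 and 829 in SNEB at 1 wkpp, 815, 1017 and 839 in SNEB at 16 wkpp, 1963, 1273 and 1136 in MNEB at 1 wkpp and 1269, 1167 and 1146 in MNEB at 16 wkpp. Its 3 MNEB libraries lay above the 3 SNEB libraries at both times, and its log2 fold change at 1 wkpp was -0.75 ± 0.27 (SE; adjusted p = 0.09). USP18, the protease that removes ISG15, had 85.9, 115 and 124 in SNEB and 344, 170.2 and 188 in MNEB at 1 wkpp, with a log2 fold change of -1.19 ± 0.33 (SE; adjusted p = 0.041). The ligases HERC5 and HERC6, which attach ISG15, had -0.44 ± 0.48 (SE; adjusted p = 0.56) and -0.96 ± 0.40 (SE; adjusted p = 0.13), UBA7 had -1.30 ± 0.54 (SE; adjusted p = 0.13) and ISG15 itself -1.90 ± 0.98 (SE; adjusted p = 0.22). Leaving out library 1 of MNEB at 1 wkpp gave -0.71 for USP18, -0.49 for TRIM25, -0.44 for HERC6 and -0.61 for UBA7. The sign turned for HERC5, which had 0.47, and for ISG15, which had 0.06.

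OAS1Y, the oligoadenylate synthetase with the highest mean count, had normalised exonic reads of 341, 1434 and 474 at -4 wkpp, 192, 870.1 and 399 in SNEB at 1 wkpp, 459, 556 and 589.7 in SNEB at 16 wkpp, 2108, 911 and 419 in MNEB at 1 wkpp and 1181, 506 and 839.5 in MNEB at 16 wkpp. The highest values were those of library 1 of MNEB at 1 wkpp and library 2 at -4 wkpp, the groups overlapped, and the log2 fold change of SNEB against MNEB at 1 wkpp was -1.26 ± 0.64 (SE; adjusted p = 0.21). OAS2 had -2.47 ± 0.94 (SE; adjusted p = 0.11), OAS1X -1.07 ± 0.54 (SE; adjusted p = 0.2) and OAS1Z -1.65 ± 0.61 (SE; adjusted p = 0.099) in exonic reads. Without library 1 of MNEB at 1 wkpp, OAS2 had -1.18, OAS1Z -0.72, OAS1Y -0.61 and OAS1X -0.64. Leaving library 1 of SNEB out instead, OAS2 had -1.58, OAS1Y -0.69 and OAS1X -0.46.

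The sensors differed from each other. EIF2AK2, the kinase PKR that stops translation when it binds double-stranded RNA, had normalised exonic reads of 611, 737 and 471 at -4 wkpp, 426, 516 and 404 in SNEB at 1 wkpp, 513, 465 and 596 in SNEB at 16 wkpp, 753, 340.5 and 268 in MNEB at 1 wkpp and 472, 470.4 and 498 in MNEB at 16 wkpp. SNEB and MNEB overlapped at 1 wkpp, and the log2 fold change was -0.005 ± 0.36 (SE; adjusted p = 0.99), with a range of 2 SE either side from -0.72 to 0.71, and 0.58 without library 1 of MNEB. DHX58, an RNA helicase that modulates RIG-I and MDA5, had 74.6, 217 and 79.7 in SNEB and 415, 238 and 243 in MNEB at 1 wkpp, without overlap, and a log2 fold change of -1.49 ± 0.45 (SE; adjusted p = 0.052).

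XAF1, a proapoptotic interferon-induced gene, had one of the largest differences relative to its error at 1 wkpp. Its normalised exonic reads were 48.3, 98.3 and 71.0 at -4 wkpp, 40.5, 109.7 and 69.2 in SNEB at 1 wkpp, 56.1, 79.0 and 75.5 in SNEB at 16 wkpp, 354, 132 and 125 in MNEB at 1 wkpp and 111, 64.3 and 89.4 in MNEB at 16 wkpp. The MNEB libraries at 1 wkpp were above those of every other group, the lowest of them by a small margin over library 1 of MNEB at 16 wkpp. The log2 fold change of SNEB against MNEB at 1 wkpp was -1.66 ± 0.50 (SE; adjusted p = 0.055) in exonic reads and -1.93 ± 0.45 (SE; adjusted p = 0.089) for the entire gene. At -4 wkpp against MNEB at 1 wkpp it was -1.61 ± 0.45 (SE; adjusted p = 0.022) and -1.68 ± 0.43 (SE; adjusted p = 0.056). Leaving out library 1 of MNEB at 1 wkpp, the exonic log2 fold change of XAF1 was -0.91 (adjusted p = 0.26 in limma) against SNEB and -0.87 (adjusted p = 0.15) against -4 wkpp. Among the settings tried, XAF1 was called in both comparisons when limma was fitted on all 15 libraries together.

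The remaining effectors included the members with a positive log2 fold change at 1 wkpp other than DTX3L, which were IFI6 and IFIT5. MX1, whose values in each library are given above, had a log2 fold change of -1.32 ± 0.62 (SE; adjusted p = 0.18) at 1 wkpp, SNEB minus MNEB, which was -0.70 without library 1 of MNEB and -0.85 without library 1 of SNEB. At 16 wkpp MX1 had -0.58 ± 0.33 (SE; adjusted p = 0.24), and -0.20 and -0.31 without library 1 of MNEB and library 2 of SNEB in turn. IFI27, a mitochondrial protein, had normalised exonic reads of 180.1, 1151 and 372 at -4 wkpp, 103, 606 and 148 in SNEB at 1 wkpp, 205, 326 and 751 in SNEB at 16 wkpp, 1048, 78.4 and 84.5 in MNEB at 1 wkpp and 413, 97.7 and 531 in MNEB at 16 wkpp, a spread within groups that reached 13.4-fold in MNEB at 1 wkpp, and a log2 fold change of -0.44 ± 1.01 (SE; adjusted p = 0.79). IFI6, an inhibitor of apoptosis, had 198, 398 and 126 in SNEB and 254, 37.8 and 55.1 in MNEB, with library 1 of MNEB well above the other MNEB libraries, and a log2 fold change of 0.88 ± 0.72 (SE; adjusted p = 0.43). MX2 (-1.97 ± 0.91 (SE; adjusted p = 0.17)), RSAD2, which makes a chain-terminating nucleotide (-0.40 ± 0.69 (SE; adjusted p = 0.72)), SAMD9, an inhibitor of translation (-0.38 ± 0.43 (SE; adjusted p = 0.58)) and IFI35 (-0.10 ± 0.26 (SE; adjusted p = 0.81)) overlapped between groups as well. When library 1 of MNEB was left out, the log2 fold change of MX2 was -0.09, and the sign turned for IFI27 (1.39), RSAD2 (0.83), IFI35 (0.20) and SAMD9 (0.09), as it did for IFIT3 (from -0.28 to 0.07). IFI6 then had 2.27, and 0.44 and 0.38 without library 2 of SNEB and of MNEB. For IFI27 and RSAD2 the sign also turned without library 1 of SNEB, to 0.12 and 0.03. IFIT5, which binds viral RNA ends, had normalised exonic reads of 898, 1489 and 964 at -4 wkpp, 705, 1048 and 884 in SNEB at 1 wkpp, 1419, 1335 and 1019 in SNEB at 16 wkpp, 1291, 535 and 364 in MNEB at 1 wkpp and 948, 887 and 590.4 in MNEB at 16 wkpp and a log2 fold change of 0.36 ± 0.42 (SE; adjusted p = 0.58), which was between 0.01 without library 3 of MNEB and 0.99 without library 1 of MNEB.

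The ADP-ribosyltransferases PARP9 and PARP14 and the ligase DTX3L, a partner of PARP9, are neighbours on the chromosome, with DTX3L between the others in the RefSeq order. PARP14 had normalised exonic reads of 605, 657 and 805 at -4 wkpp, 543, 667 and 818 in SNEB at 1 wkpp, 549.6, 698 and 844 in SNEB at 16 wkpp, 2983, 838 and 761 in MNEB at 1 wkpp and 927, 640 and 634 in MNEB at 16 wkpp. A single library, library 1 of MNEB at 1 wkpp, was more than 3 times as high as the next of the 15, and the log2 fold change of SNEB against MNEB at 1 wkpp was -0.91 ± 0.48 (SE; adjusted p = 0.22). For PARP9 and DTX3L it was -0.31 ± 0.42 (SE; adjusted p = 0.65) and 0.17 ± 0.46 (SE; adjusted p = 0.83), and for TRIM21 -0.58 ± 0.27 (SE; adjusted p = 0.17). With that library of MNEB left out, PARP14 had -0.22, PARP9 0.41 and DTX3L 0.95, and DTX3L was -0.21 without library 3 of MNEB.

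**Figure D3:**
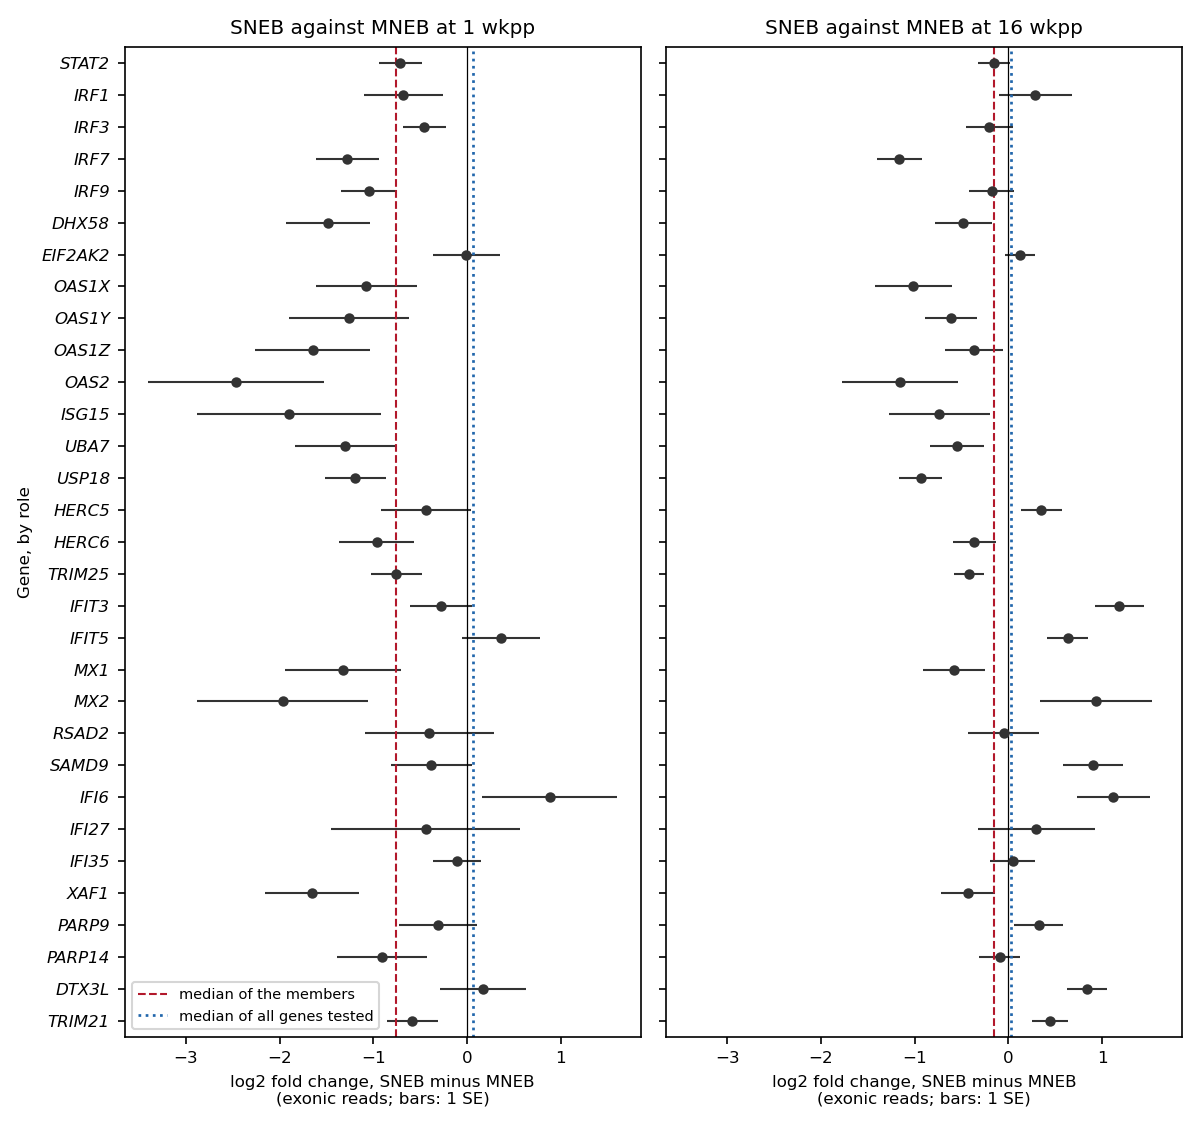
Log2 fold changes of the 31 members in exonic reads, SNEB minus MNEB, at 1 wkpp (left) and 16 wkpp (right), with bars of 1 SE; the dashed line is the median of the members (-0.75 and -0.16), the dotted line that of all genes tested. At 1 wkpp most points lie left of 0, and at 16 wkpp they lie on both sides.

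At 16 wkpp, in established lactation, the members were divided between SNEB and MNEB. There were 18 of 31 with a negative and 13 with a positive log2 fold change, and the median was -0.16 (all genes 0.03). When library 1 of MNEB was left out, 13 were negative and the median turned to 0.11. There were 6 members higher in all SNEB libraries than in all MNEB libraries, and 3 lower in all of them (19.4% and 9.68% of members, against 22.1% and 22% of all genes, 44.1% together); of all genes, 48.1% had a negative log2 fold change.

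IRF7 had the smallest p of all members at 16 wkpp. Its log2 fold change was -1.17 ± 0.24 (SE; adjusted p = 0.0095) in exonic reads and -1.38 ± 0.26 (SE; adjusted p = 0.013) for the entire gene, which put it past 0.01 in exonic reads alone. USP18 had -0.94 ± 0.23 (SE; adjusted p = 0.02) and -0.62 ± 0.22 (SE; adjusted p = 0.11), and TRIM25 -0.42 ± 0.16 (SE; adjusted p = 0.077) in exonic reads. All 3 were higher in every MNEB library than in every SNEB library.

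In the opposite direction, IFIT3, an adaptor that binds other IFIT proteins, had 260.3, 386 and 374 normalised exonic reads in SNEB and 125, 200.5 and 149 in MNEB at 16 wkpp. The log2 fold change was 1.18 ± 0.26 (SE; adjusted p = 0.013) in exonic reads and 1.12 ± 0.30 (SE; adjusted p = 0.043) for the entire gene, without overlap. DTX3L had 0.84 ± 0.21 (SE; adjusted p = 0.023), IFI6 1.12 ± 0.39 (SE; adjusted p = 0.067), IFIT5 0.63 ± 0.22 (SE; adjusted p = 0.067), TRIM21 0.44 ± 0.19 (SE; adjusted p = 0.11) and HERC5 0.35 ± 0.22 (SE; adjusted p = 0.27) in exonic reads, and these too did not overlap. SAMD9, with 0.90 ± 0.32 (SE; adjusted p = 0.069), did overlap. For the IFIT family, the medians were 0.04 at 1 wkpp and 0.91 at 16 wkpp, and both members found were positive at 16 wkpp, also with any single library left out. The family's median at 1 wkpp ran from -0.17 without library 3 of MNEB to 0.53 without library 1 of MNEB. At 16 wkpp, HERC5 had 0.14 without library 2 of SNEB. The summed leukocyte and macrophage markers given above were higher in every SNEB than in every MNEB library at that time, as were 12 of the 12 single markers (all genes 22.1%). At 1 wkpp the sum was again higher in every SNEB library, by a narrow margin over library 1 of MNEB, but 6 of the 12 markers, PTPRC, CD68 and CSF1R among them, overlapped between the groups (all genes higher in every SNEB library 19.1%). Their part in the values of the members was not tested.

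Calving itself was crossed by the comparisons of -4 wkpp with 1 wkpp, which share the 3 libraries at -4 wkpp. Against MNEB, 23 of 31 members had a negative log2 fold change, -4 wkpp minus 1 wkpp (all genes 48%), with a median of -0.74 (all genes 0.04). This count was 17 of 31 and the median -0.19 without library 1 of MNEB. By role, both genes of the IFIT family were positive. The sensors, the IFI genes, the group of MX1 and the group of PARP14 each had members of both signs. The 5 transcription factors, the 6 ISG15 genes and the 4 oligoadenylate synthetases were all negative with all libraries in. When library 1 of MNEB was left out, all 5, 4 of 6 and 3 of 4 were, and the sign turned for ISG15 (0.64), HERC5 (0.39) and OAS1Y, whose value was near 0. TRIM25 had -1.06 ± 0.27 (SE; adjusted p = 0.015), USP18 -1.36 ± 0.36 (SE; adjusted p = 0.017) and STAT2 -0.74 ± 0.23 (SE; adjusted p = 0.03) in exonic reads, and for the entire gene -0.90 ± 0.37 (SE; adjusted p = 0.19), -0.77 ± 0.48 (SE; adjusted p = 0.39) and -0.74 ± 0.28 (SE; adjusted p = 0.15). USP18 had -0.88 (adjusted p = 0.1 in limma) in exonic reads without library 1 of MNEB. With IRF3, TRIM21 and XAF1 they made up the 6 members whose groups did not overlap (19.4%, against 23.8% of all genes in that direction, 23% in the other and 46.8% in both). IFI6 stood at the other end, with 1.5 ± 0.77 (SE; adjusted p = 0.17), and had 2.90 without library 1 of MNEB and 0.88 without library 2 at -4 wkpp.

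Against SNEB, 24 of 31 members had a positive log2 fold change, with a median of 0.28 (all genes -0.03, of which 53.2% were negative). The groups overlapped for all 31 members, against 19.7% of all genes without overlap, 10.5% higher and 9.23% lower at -4 wkpp. SAMD9 had the smallest p, with 509.9, 595 and 464 normalised exonic reads at -4 wkpp, 195, 504 and 249 in SNEB and a log2 fold change of 0.85 ± 0.32 (SE; adjusted p = 0.26). SAMD9 had 0.55 without library 1 of SNEB, and 1.25 without library 2 of SNEB, with an adjusted p in limma of 0.0092 in exonic reads and 0.053 for the entire gene, so that it was not called. Without library 2 at -4 wkpp, 15 of 31 members were positive and the median was -0.01, and without library 1 of SNEB it was 16 of 31 and 0.01.

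**Figure D4:**
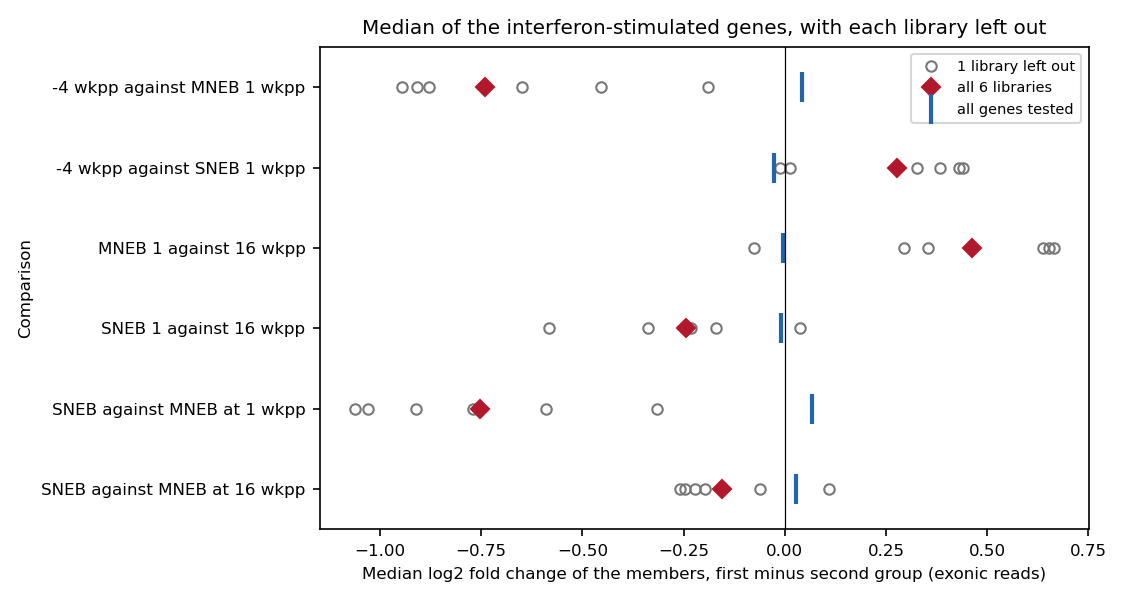
Median log2 fold change of the 31 members in exonic reads, first minus second group, with all 6 libraries (diamonds) and with each library left out in turn (open circles); vertical bars mark the median of all genes tested. The circle nearest to 0 in the first comparison (-0.19) and in SNEB against MNEB at 1 wkpp (-0.32) is the one without library 1 of MNEB.

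From 1 to 16 wkpp, MNEB had 27 of 31 members with a positive log2 fold change, 1 minus 16 wkpp, with a median of 0.46 (all genes 0.00), and SNEB had 27 of 31 with a negative one, with a median of -0.24 (all genes -0.01). Of all genes, 50.4% were negative in MNEB and 51.3% in SNEB. In MNEB, TRIM21 (0.75 ± 0.25 (SE; adjusted p = 0.28)), IFIT3 (0.82 ± 0.31 (SE; adjusted p = 0.32)), IRF3 (0.63 ± 0.24 (SE; adjusted p = 0.33)) and XAF1 (1.15 ± 0.47 (SE; adjusted p = 0.34)) did not overlap between the times (12.9% of members, against 9.79% of all genes in that direction, 10.3% in the other and 20% in both). In SNEB only HERC5 did not overlap (of all genes 4.11% in that direction, 8.02% in the other and 12.1% in both), with -0.66 ± 0.23 (SE; adjusted p = 0.68) and 219, 293 and 314 normalised exonic reads at 1 wkpp against 383, 568 and 345 at 16 wkpp. Without library 1 of MNEB at 1 wkpp, 14 of 31 members were positive in MNEB and their median was -0.08, IFIT3 had 0.51 and XAF1 0.49, and without library 1 of SNEB at 1 wkpp, 15 of 31 were negative in SNEB, with a median of 0.04.

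Whether this change differed between SNEB and MNEB was tested as an interaction over the 12 libraries after calving. The code of the sample titles swaps between SNEB and MNEB from 1 to 16 wkpp, so whatever it marks cannot be told apart from this interaction. No member was called, and no gene of 10244 was (0%). The interaction was negative for 31 of 31 members (all genes 48.3%), with a median of -0.76 (all genes 0.02), and 5 members had an unadjusted p below 0.05 (16.1%, against 4.93%). These were IFIT3, TRIM21, MX2, SAMD9 and IRF9, and limma's adjusted p was at least 0.98 for all members. Without library 1 of MNEB at 1 wkpp, 18 of 31 members were negative, the median was -0.10, and 2 members had an unadjusted p below 0.05 (8.77% of all genes), a share below the background. With any other library left out, that count was 2 to 8 and the background 3.85% to 7.32%.

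Reads on exons made up different shares of the reads on the entire gene, from 24.4% for EIF2AK2, 27.3% for OAS2 and 34.7% for USP18 to 93.7% for IFI6, 95.9% for ISG15 and 96.0% for IRF7 over the 15 libraries together. Over all genes the ratio of exonic to entire-gene reads was 40.3% to 54.1% in the libraries at -4 wkpp and of SNEB, and 47.3% to 59.7% in those of MNEB. The exonic share of USP18 was 29.0% at -4 wkpp, 34.5% and 31.0% in SNEB and 42.9% and 42.6% in MNEB at 1 and 16 wkpp. HERC6 (34.1%, then 37.8% and 36.0%, then 41.0% and 42.0%) and PARP14 (47.7%, then 53.0% and 47.6%, then 61.2% and 62.0%) likewise had their highest shares in MNEB. The share of EIF2AK2 stayed between 23.2% and 25.2%. USP18 had a larger log2 fold change at 1 wkpp in exonic reads (-1.19) than for the entire gene (-0.86), and no test of exonic share was made.

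Other genes of the pathway were taken from 5 lists of 81 genes, of which 61 had values and 52 to 56 were tested on exonic reads in a comparison. Across the 6 comparisons a single call was made, of TRIM56, a ubiquitin ligase that aids the DNA sensing pathway, in SNEB against MNEB at 16 wkpp. TRIM56 had normalised exonic reads of 753, 938 and 743 at -4 wkpp, 890.2, 785 and 893 in SNEB at 1 wkpp, 818, 831 and 758 in SNEB at 16 wkpp, 1514, 899.8 and 1121 in MNEB at 1 wkpp and 1412, 1563 and 1988 in MNEB at 16 wkpp. Its log2 fold change at 16 wkpp was -1.03 ± 0.17 (SE; adjusted p = 0.0037) in exonic reads and -1.22 ± 0.21 (SE; adjusted p = 0.0094) for the entire gene, with no overlap between the groups. The call was lost with any single library left out, when the log2 fold change in exonic reads was -1.13 to -0.89 and the adjusted p for TRIM56 in limma was 0.0059 to 0.016 in exonic reads and 0.012 to 0.03 for the entire gene.

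At the head of the pathway, the receptor chain IFNAR1 had normalised exonic reads of 807, 577 and 809 at -4 wkpp, 777, 721 and 1017 in SNEB at 1 wkpp, 764, 744 and 972 in SNEB at 16 wkpp, 907, 403 and 511 in MNEB at 1 wkpp and 658, 666 and 653 in MNEB at 16 wkpp, and SNEB and MNEB overlapped at 1 wkpp but not at 16 wkpp, where every SNEB library was the higher. IFNAR2 had a log2 fold change of 0.52 ± 0.15 (SE; adjusted p = 0.038) in exonic reads at 16 wkpp, SNEB minus MNEB. The kinases JAK1 and TYK2 had 1.26 ± 0.28 (SE; adjusted p = 0.02) and -0.54 ± 0.19 (SE; adjusted p = 0.084) at 1 wkpp, in opposite directions. Among further interferon-induced genes, PML, the scaffold of nuclear bodies, had -1.46 ± 0.24 (SE; adjusted p = 0.0099) at 1 wkpp and -1.14 ± 0.20 (SE; adjusted p = 0.0043) at 16 wkpp, and IFITM3, which blocks viral fusion, had 0.93 ± 0.18 (SE; adjusted p = 0.0075) at 16 wkpp in exonic reads. PML and IFITM3 were past 0.01 in exonic reads but had an adjusted p of 0.073 and 0.03 for the entire gene at 16 wkpp in limma, so they were not called. These genes other than TRIM56 were chosen after their values were seen. An unadjusted p below 0.05 was found for 31.5% of the pathway genes tested at 1 wkpp and 45.5% at 16 wkpp in SNEB against MNEB, beside 32.3% and 38.4% of all genes.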

How the data were processed

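The deposited tables hold, for each of 6 comparisons, the mean normalised count of each gene over the 6 libraries compared, once for exonic reads and once for the entire gene. According to the methods and the processing notes, the authors trimmed reads with Cutadapt 1.3, aligned them to bosTau8 with TopHat2, assigned them with htseq-count and normalised them with DESeq2. The tables also hold the authors' own log2 fold changes, standard errors, test statistics and p-values, which were not used.

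Each mean is a sum of whole reads divided by size factors, given to 15 significant digits, so the reads of all 15 libraries were recovered by lattice reduction, for 13890 of 13896 genes (99.96%) in both analyses. COL1A1, COL1A2, COL3A1, FN1, RMRP and RN7SL1 were not recovered. Size factors computed from the recovered reads differed from the decoded ones by at most 0.0428% (exons) and 0.109% (entire gene). Recovery and test were tested on simulated data. The recovered libraries belong to a group, but cannot be tied to a single sample. No column of another sample was found.

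Genes with a mean normalised count of at least 10 were tested in each comparison with limma voom (limma 3.58.1, R 4.3.3), two-sided, with median-of-ratios size factors and Benjamini-Hochberg adjustment over all genes. Log2 fold changes are the first group named minus the second. Reads were decoded in Python 3.11.15 with sympy 1.14.0 and numpy 2.4.6. Values in every library are given for the member of highest mean in each role, since no member was called. ISG15, IRF7, XAF1, USP18, IFIT3, DHX58, IFI6, HERC5 and SAMD9 were chosen for such values after they were seen. The members and the lists of other genes and markers were chosen with earlier results of these data known. Neighbouring genes and their order come from RefSeq. Read totals on genes limit precision, and the MNEB libraries, which have the fewest such reads, are the least precise. In the paper's own figures, total reads per library were similar in MNEB and elsewhere. A smaller share mapped uniquely in every MNEB library than in every other library, and more reads mapped to several places. This difference cannot be told apart from the difference between SNEB and MNEB, and its part in the results was not tested. A withheld gene of the pathway lists is not reported here by name.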

Additional observations from a re-analysis of the deposited data

How the results depend on the processing

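No member was called in any of the 6 comparisons or in the interaction, and this count stayed at 0 under the alternatives with 4 exceptions. One fit over all 15 libraries called 1 member, XAF1, in -4 wkpp against MNEB at 1 wkpp (-1.65) and 1, again XAF1, in SNEB against MNEB at 1 wkpp (-1.69). At 16 wkpp, exonic reads alone called 1 (IRF7), and an adjusted p below 0.05 in both analyses called 2 (IFIT3 and IRF7). Counts over all genes moved far more. For -4 wkpp against MNEB at 1 wkpp, 190 genes were called, 1738 with exonic reads alone, 1061 at 0.05, 1585 with sample quality weights, 1065 in one fit over all libraries, 308 with library sizes as sums of reads and 69 with no filter on low values. For -4 wkpp against SNEB at 1 wkpp the counts were 4, 54, 67, 295, 24, 0 and 4, and limma trend gave 10 and 9 with pseudocounts of 1 and 5. For SNEB against MNEB at 1 wkpp they were 0, 252, 94, 805, 312, 0 and 0, and at 16 wkpp 372, 1067, 1350, 483, 505, 391 and 272. The cause was not tested. With each library left out in turn, the median of the members ranged from -0.95 to -0.19 (-4 wkpp against MNEB), -0.01 to 0.44 (-4 wkpp against SNEB), -0.08 to 0.66 (MNEB 1 against 16 wkpp), -0.58 to 0.04 (SNEB 1 against 16 wkpp), -1.06 to -0.32 (SNEB against MNEB at 1 wkpp) and -0.26 to 0.11 (16 wkpp), and 0 members were called each time. Over all genes, leaving out 1 library gave 1 to 227 calls for -4 wkpp against MNEB, 0 to 84 for -4 wkpp against SNEB (84 without library 2 of SNEB, 0 without any other), 0 to 449 for SNEB against MNEB at 1 wkpp (449 without library 1 of MNEB, 0 without any other), 34 to 111 at 16 wkpp, and 0 for 1 against 16 wkpp in MNEB and in SNEB. These leave-out counts of direction were chosen after seeing the data. No paired analysis was possible because the recovered libraries carry no replicate number or cow.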
